A study of Mus musculus with 8 samples.

Results

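The ID family consists of 4 genes, *Id1*, *Id2*, *Id3* and *Id4*, which were taken by Entrez number from the 21058 genes of the deposited RNA-seq tables. All 4 passed the filter on low counts, which kept 17643 genes. The family was chosen on the strong decrease of *Id4* between the genotypes compared here, so the differences of its members between genotypes are given as a description. Nothing is read from a test of them.

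The RNA came from pachytene spermatocytes, the mid-prophase cells of meiosis I, with 4 libraries from *Arid1a* WT and 4 from *Arid1a* cKO mice. *Arid1a* encodes a DNA-binding subunit of the BAF chromatin remodeler. Both genotypes came from floxed mice on a CD1 background. Knockout males (*Arid1a* fl/fl; *Stra8-Cre* Tg/0) had the Cre transgene, which acts in spermatogonia, and the *Arid1a* WT males were fl/fl or fl/+, with no Cre stated. Cells were pooled from the testes of adult males and separated by Sta-Put, which sorts dissociated cells by how fast they sink at unit gravity. The purified cells can therefore hold other cells of like sedimentation, and because Cre acted incompletely the *Arid1a* cKO preparations also hold spermatocytes that kept ARID1A. The labels call the libraries biological replicates, and nothing in the sources used here ties each one to its own purification, so the spread between libraries may be partly technical.

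ID proteins have a helix-loop-helix dimerization domain but lack the basic region that contacts DNA. They pair with the E proteins TCF3, TCF4 and TCF12, and such dimers cannot bind the E-box, the CANNTG element that E proteins recognize alone or with tissue-restricted basic helix-loop-helix (bHLH) partners. In many tissues the *Id* genes respond to bone morphogenetic protein (BMP) signals carried by SMAD1, SMAD5 and SMAD9. In the testis ID4 is best known from spermatogonial stem cells, and ID2 is also made by Sertoli cells, the somatic nurse cells of the tubule.

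Estimated counts summed to 18308688 to 22044507 per *Arid1a* WT library and to 15850961 to 21626772 per *Arid1a* cKO library. *Arid1a* itself (chr4:133679008-133756769) was at 105, 128.5, 121 and 98.8 CPM (counts scaled to the size of each library) in *Arid1a* WT libraries 1 to 4 and at 76.4, 81.0, 82.9 and 78.3 CPM in *Arid1a* cKO libraries 1 to 4. All 4 *Arid1a* cKO values lay below all 4 *Arid1a* WT values, and the gene fell by 0.51 ± 0.07 (SE) on the log2 scale (edgeR quasi-likelihood test, Benjamini-Hochberg adjusted p = 2.31e-05). Counts from parts of *Arid1a* outside the floxed exons are included in that value.

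The stretches upstream of *Id4* and *Id2* are shown because these are the 2 members whose RNA differed most between genotypes. Sequences and starts are those of RefSeq on GRCm38.p6, the build that mm10 names, and 3 of the 4 members had an entry in the table of promoters used (250 bases before to 50 after the start). The *Id4* stretch is chr13:48260866-48261115 on the plus strand, the 250 bases before the start. The *Id2* stretch is chr12:25096254-25096342 on the minus strand, bases -250 to -162 from the start, which lie between 2 exons of the longer GENCODE transcript *Id2-202*. Capitals mark the E-box CANNTG and GGCGCC, a GC-rich element that BMP SMADs can bind.

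Id4: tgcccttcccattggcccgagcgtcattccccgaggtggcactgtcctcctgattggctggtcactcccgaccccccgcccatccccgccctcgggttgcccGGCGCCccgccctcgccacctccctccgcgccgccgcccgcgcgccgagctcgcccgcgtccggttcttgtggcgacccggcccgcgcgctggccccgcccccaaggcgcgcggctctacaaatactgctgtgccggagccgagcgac

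Id2: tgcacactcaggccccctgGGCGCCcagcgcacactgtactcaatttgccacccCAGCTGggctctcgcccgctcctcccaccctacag

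*Id4* had 1 GGCGCC, at -148 from its start, and no E-box in its window of 300 bases. *Id2* had 1 GGCGCC at -231 and 1 E-box, CAGCTG, at -196. GGCGCC was present in 11.9% of the 32851 promoter windows of the table, and CANNTG in 72.3%. The short SMAD element GTCT, read on both strands and therefore also as AGAC, occurred once in *Id2* and 3 times in *Id3* and was absent from the window of *Id4*, beside 88.0% of all windows that hold it. The CREB element TGACGTCA was found in none of the 3 windows and in 1.8% of all windows. *Id3* also lacked an E-box and GGCGCC. The *Id4* window was 73.3% G and C, higher than 94.5% of windows, beside 63.3% for *Id2* and 60.0% for *Id3*. Of the 4 elements only GTCT reads differently on the other strand, and a match to these letters does not show that a factor bound there.

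*Id4* (Entrez 15904, chr13:48261116-48266028) was the most abundant member in every library. Its level was 35.0, 37.1, 35.0 and 33.8 TPM (a level scaled for transcript length and depth) in *Arid1a* WT libraries 1 to 4, and 4.91, 5.09, 5.32 and 5.05 TPM in *Arid1a* cKO libraries 1 to 4. The genotypes did not overlap, and the 4 libraries of each genotype lay close together. The mean was 35.2 ± 1.35 TPM in *Arid1a* WT and 5.09 ± 0.171 TPM in *Arid1a* cKO (SD, n = 4), a 6.92-fold lower level. On the scale of counts, *Id4* went from 1720 to 2032 estimated counts per *Arid1a* WT library to 222 to 312 per *Arid1a* cKO library, or from 90.3 ± 3.34 to 14.4 ± 0.361 CPM. The fitted log2 fold change in CPM was -2.65 ± 0.05 (SE), and the mean CPM in *Arid1a* cKO was 15.9% of that in *Arid1a* WT. By TPM, *Id4* ranked above 78.9% of all listed genes in *Arid1a* WT and above 55.7% in *Arid1a* cKO.

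*Id2* (Entrez 15902, chr12:25093799-25096092) was the second most abundant member in every library. It was at 8.25, 9.28, 11.3 and 9.18 TPM in *Arid1a* WT libraries 1 to 4 and at 1.99, 2.33, 2.51 and 2.96 TPM in *Arid1a* cKO libraries 1 to 4. The lowest *Arid1a* WT library was well above the highest *Arid1a* cKO library. The means were 9.50 ± 1.28 and 2.45 ± 0.404 TPM (SD, n = 4), a 3.88-fold lower level, and the fitted log2 fold change in CPM was -1.67 ± 0.13 (SE). These values rest on 135 to 167 estimated counts per *Arid1a* WT library and 37.2 to 48.8 per *Arid1a* cKO library. By TPM, *Id2* ranked above 62.0% of listed genes in *Arid1a* WT and above 47.0% in *Arid1a* cKO.

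*Id1* and *Id3*, the members most often induced together by BMP, were scarce in all 8 libraries. *Id1* (Entrez 15901, chr2:152736251-152737410) had 16, 13, 16 and 18 counts in *Arid1a* WT libraries 1 to 4 and 16, 12, 13 and 10 in *Arid1a* cKO libraries 1 to 4. *Id3* (Entrez 15903, chr4:136143822-136145392) had 10, 16, 17 and 27 counts in *Arid1a* WT and 20, 16, 25 and 11 in *Arid1a* cKO, in the same order. In both genes the genotypes overlapped. The exact Poisson 95% interval, which covers counting error only, was 4.80 to 18.4 for a library with 10 counts and 17.8 to 39.3 for the library with 27. *Id1* was at 1.38 ± 0.165 TPM in *Arid1a* WT and 1.18 ± 0.177 TPM in *Arid1a* cKO. *Id3* was at 1.15 ± 0.480 and 1.19 ± 0.287 TPM (SD, n = 4). The fitted ratio of *Arid1a* cKO to *Arid1a* WT was 0.937 for *Id1* (95% interval 0.667 to 1.32) and 1.18 for *Id3* (0.798 to 1.76). These intervals describe the precision of the fit, and no change is read from them or excluded by them.

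**Figure D1:**
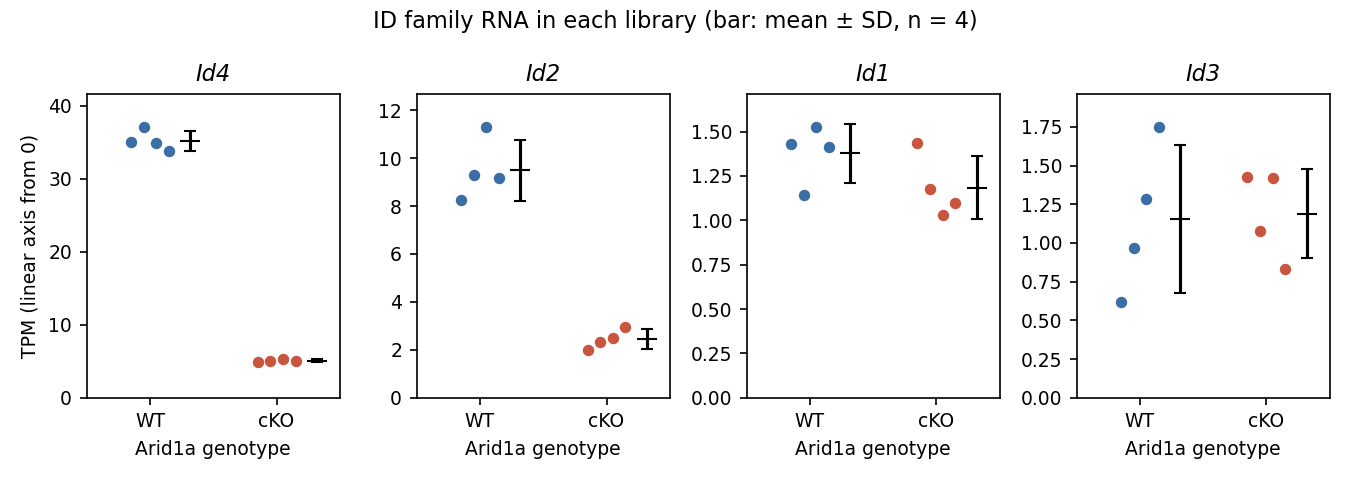
TPM of each ID gene in the 4 *Arid1a* WT (blue) and 4 *Arid1a* cKO (red) libraries, on linear axes from 0 that differ in height between panels; each point is a library and the bar is the mean ± SD. *Id4* and *Id2* separate by genotype, at 35.2 against 5.09 TPM and 9.50 against 2.45 TPM, while the points of *Id1* and *Id3* overlap.

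The order by TPM was *Id4*, then *Id2*, then *Id1* and *Id3* in all 8 libraries. *Id3* exceeded *Id1* in *Arid1a* WT library 4 and *Arid1a* cKO library 3 and was below it in the other 6, so these neighbours did not differ beyond their spread. The steps above them were clear in both genotypes but became shallower in *Arid1a* cKO. *Id4* was 3.10 to 4.24 times *Id2* in *Arid1a* WT and 1.71 to 2.46 times in *Arid1a* cKO, and *Id2* was 5.77 to 8.13 times *Id1* in *Arid1a* WT and 1.39 to 2.70 times in *Arid1a* cKO.

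Of the 4 members, *Id2* and *Id4* met the call used across all genes (adjusted p of 0.05 or less), both lower in *Arid1a* cKO, and *Id1* and *Id3* did not. Calls were common in this comparison. By the same rule 74.0% of the 17643 genes tested were called, 36.5% higher and 37.5% lower in *Arid1a* cKO, and in 68.9% the CPM values of the 2 genotypes did not overlap, as was the case for *Id2* and *Id4*. Since the family was chosen on this contrast, nothing is read from its count of 2. By size, 0.992% of the genes tested had a lower log2 fold change than *Id4*, and 5.51% had one lower than *Id2*. The median log2 fold change of all genes tested was -0.0198.

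**Figure D2:**
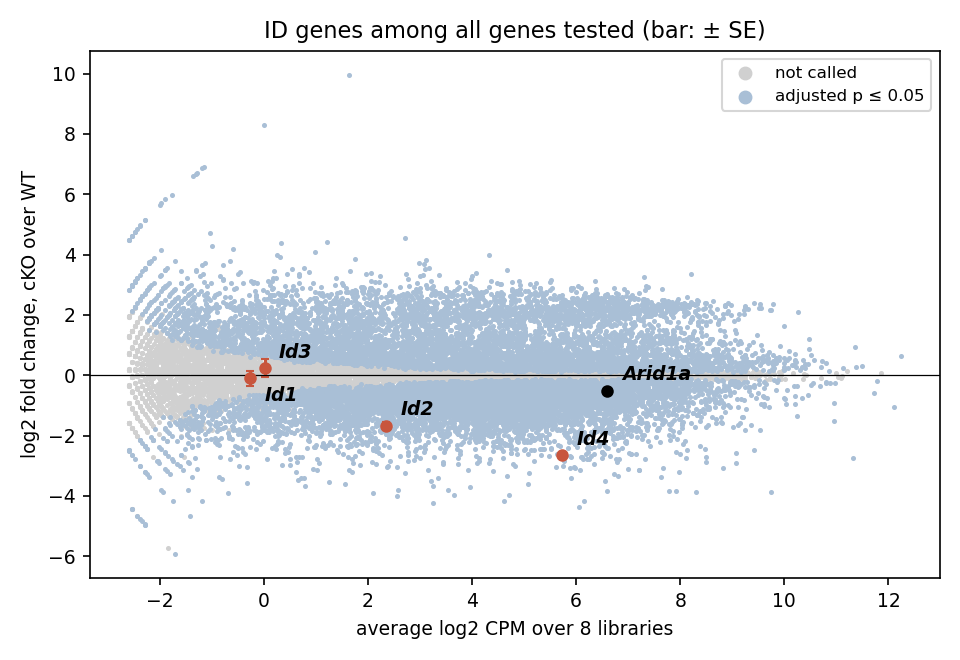
Log2 fold change (*Arid1a* cKO over *Arid1a* WT) against average log2 CPM for all 17643 genes tested, called genes in pale blue and the rest in grey. The red points with ± SE are the ID genes and the black point is *Arid1a*: *Id4*, at -2.65, lies near the lower edge of genes of its abundance, *Id2* lies at -1.67, and *Id1* and *Id3* lie near 0 among weakly expressed genes.

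In bulk RNA, fewer cells of a type and less RNA per cell cannot be told apart, and the purified fractions differed in markers of other testis cells. Markers of Sertoli cells fell together. All 14 tested of 15 were called lower in *Arid1a* cKO, or 100%, beside 74.0% of all genes called and 37.5% called lower. Their median log2 fold change was -1.51, against -0.0198 over all genes. Their summed level was 619 to 693 CPM in *Arid1a* WT and 198 to 205 CPM in *Arid1a* cKO, and *Rhox5* was at 0 in all libraries. *Clu*, a secreted chaperone abundant in Sertoli cells, fell from 350 ± 18.1 to 88.5 ± 3.33 CPM, and *Amhr2*, the receptor for anti-Müllerian hormone, fell from 91.4 ± 4.74 to 25.9 ± 1.00 CPM. Of 8 markers of Leydig cells, the steroid-making cells between the tubules, 7 fell and none rose (median -2.92), or 87.5% called beside 74.0% of all genes, with sums of 61.4 to 64.9 and 8.68 to 9.24 CPM. The steroidogenic enzyme *Cyp17a1* fell from 17.9 ± 1.68 to 1.67 ± 0.154 CPM and the Leydig hormone *Insl3* from 16.9 ± 1.29 to 1.33 ± 0.124 CPM. No Leydig marker was at 0. The part of these cells in the values of *Id2* and *Id4* was not tested.

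*Id2* and *Id4* were also set against the summed markers of each of the 10 cell types, a measure chosen after the values were seen. *Id4* was lower in *Arid1a* cKO without overlap against 9 of the sums and higher against 1, that of Leydig cells. Each ratio holds the change of *Id4* itself, on which the family was chosen. *Id4* therefore had to come out lower against any sum that fell less than it did. The log2 ratio of the sums themselves was -2.82 for Leydig cells, -1.71 for Sertoli cells and -0.53 to 1.85 for the rest. The counts for *Id4* are thus no separate result. *Id2* was lower without overlap against 8, higher against that of Leydig cells, and overlapped against that of Sertoli cells, the list whose own change was closest to it. Per 100 CPM of summed Sertoli markers there were 1.12 ± 0.0753 CPM of *Id2* in *Arid1a* WT and 1.16 ± 0.175 in *Arid1a* cKO, and the libraries of the 2 genotypes overlapped. *Id4* per 100 CPM of Sertoli markers was 13.8 ± 1.11 in *Arid1a* WT and 7.20 ± 0.274 in *Arid1a* cKO, with no overlap. Per 100 CPM of Leydig markers, *Id4* was at 143 ± 8.37 and 161 ± 4.10 and *Id2* at 11.7 ± 0.938 and 25.8 ± 2.98, in both genes higher in every *Arid1a* cKO library than in any *Arid1a* WT library.

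The germ cell lists moved in both directions. In undifferentiated spermatogonia, the cells for which ID4 is best known, 8 of 19 tested markers rose and 5 fell (median 0.27), a share of 68.4% called beside 74.0% of all genes, and the summed level was 125 to 131 CPM in *Arid1a* WT and 128 to 143 CPM in *Arid1a* cKO. *Uchl1*, a ubiquitin hydrolase of spermatogonia, rose by 0.36 ± 0.06 on the log2 scale, and the tetraspanin *Tspan33* fell by 0.76 ± 0.07. *T* had fewer than 10 counts and no marker of the list was at 0 in every library. *Id4* per 100 CPM of these markers was 70.9 ± 3.87 in *Arid1a* WT and 10.6 ± 0.464 in *Arid1a* cKO, and *Id2* was 5.77 ± 0.453 and 1.71 ± 0.312, neither with overlap between genotypes. Pachytene markers, which define the labelled cell type, were present at sums of 12337 to 14241 CPM in *Arid1a* WT and 9717 to 10095 CPM in *Arid1a* cKO, with 9 of 12 lower and 2 higher (median -0.70), or 91.7% called beside 74.0% of all genes. *Ldhc*, *Ybx2* and *Hspa2* carry most of this sum and differed little, as in *Hspa2*, a chaperone of spermatocytes, which fell by 0.27 ± 0.06 on the log2 scale. The call of *Ldhc*, whose genotypes overlapped, was lost in 9 of 17 alternatives, among them DESeq2, filterByExpr and 5 with a library left out (*Arid1a* WT 1 or 4, *Arid1a* cKO 2, 3 or 4). Other pachytene markers, named after their values were seen, moved in either direction. *Pgk2*, a glycolytic enzyme of germ cells, rose from 277 ± 28.9 to 786 ± 32.8 CPM, and the cyclin gene *Ccna1* rose by 0.15 ± 0.04 on the log2 scale. *Piwil1*, a PIWI protein of the piRNA pathway, fell by 3.88 ± 0.05, from 1597 ± 44.2 to 109 ± 3.16 CPM, and the transcription factor gene *Pou5f2* fell by 4.37 ± 0.08, both beyond the difference of *Id4*. *Mlh3*, of the crossover machinery, fell by 2.28 ± 0.06 and *Mybl1*, a pachytene transcription factor, by 1.30 ± 0.06. Against the summed pachytene markers *Id4* was 0.678 ± 0.0368 and 0.146 ± 0.00507 CPM per 100, which mainly sets it against the 3 abundant genes, and *Id2* was 0.0555 ± 0.00847 and 0.0235 ± 0.00361.

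Markers of spermatids, the haploid cells after meiosis, stood at 4270 to 4836 CPM in *Arid1a* WT and 14613 to 15182 CPM in *Arid1a* cKO. Of 19, 18 rose and 1 fell (median 2.17), or 100% called, beside 74.0% of all genes called and 36.5% called higher. In the protamine gene *Prm2* the rise was 2.10 ± 0.05 on the log2 scale. Markers of leptotene and zygotene spermatocytes rose in 7 and fell in 3 of 10 genes (473 to 526 against 640 to 689 CPM), or 100% called beside 74.0% of all genes. Those of differentiating spermatogonia rose in 5 and fell in 1 of 8 (759 to 933 against 905 to 944 CPM), or 75% called, close to the share of all genes. *Dmrtb1*, which was called only on the log2 TPM scales (lower there), made up most of the latter sum. Myoid cell markers rose in 5 of 6 (51.0 to 59.1 against 192 to 208 CPM), or 83.3% called beside 74.0% of all genes, with *Actg2* making up most of the sum. Of the 5, *Acta2* lost its call without TMM, with length offsets, on both log2 TPM scales and without *Arid1a* WT library 1 or *Arid1a* cKO library 2. Another, *Myh11*, lost its call on log2(TPM + 0.1). Endothelial markers rose in 5 and fell in 1 of 9 (39.2 to 43.6 against 63.1 to 67.3 CPM), or 66.7% called beside 74.0% of all genes. Those of macrophages and blood rose in 6 and fell in 2 of 10 (median 1.42), or 80% called. The sum of the last list was nevertheless lower, at 29.2 to 33.2 against 19.0 to 22.5 CPM, with *Mrc1* falling from 24.5 ± 1.37 to 6.30 ± 0.631 CPM. The part of these shifts in the values of the ID genes was not tested.

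**Figure D3:**
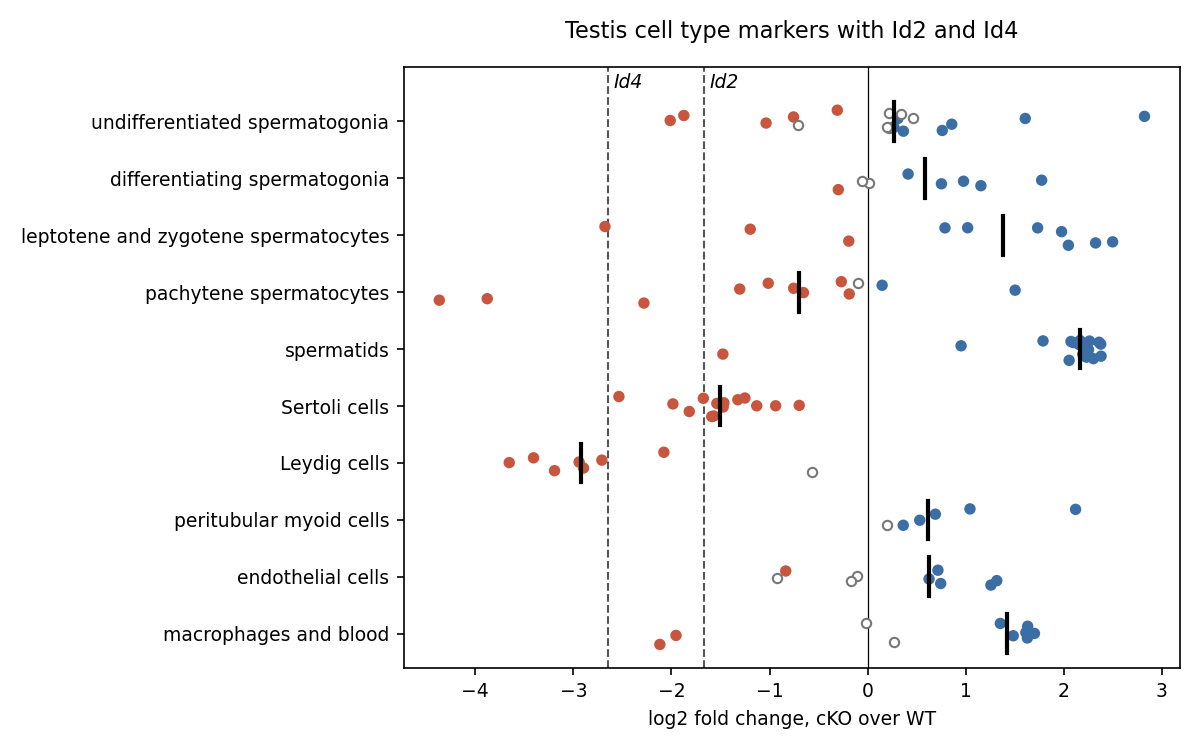
Log2 fold change (*Arid1a* cKO over *Arid1a* WT) of each tested marker, by testis cell type, with filled points for called genes (red lower, blue higher), open points for the rest, a black bar at each list's median, and dashed lines at *Id2* and *Id4*. *Id2*, at -1.67, lies within the Sertoli markers (median -1.51), and *Id4*, at -2.65, lies near the Leydig markers (median -2.92) and away from most markers of undifferentiated spermatogonia (median 0.27). The germ cell lists are spread widely, and their medians are -0.70 for pachytene and 1.38 for leptotene and zygotene spermatocytes. Most germ cell markers lie above *Id4*, but some, such as *Piwil1* (-3.88) and *Pou5f2* (-4.37), lie below it.

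Summed over the family, ID RNA was 47.3 ± 1.79 TPM in *Arid1a* WT and 9.91 ± 0.268 TPM in *Arid1a* cKO (SD, n = 4), and the genotypes did not overlap. *Id4* made up 74.6% ± 2.80 of the sum in *Arid1a* WT and 51.4% ± 1.02 in *Arid1a* cKO. The share of *Id2* was 20.1% ± 2.08 and 24.7% ± 3.86, and the shares of *Id1* and *Id3*, whose own levels overlapped between genotypes, were 2.92% and 2.44% in *Arid1a* WT and 12.0% each in *Arid1a* cKO. Without *Id4* the sum was still lower, at 12.0 ± 1.60 and 4.82 ± 0.163 TPM. That difference was one of *Id2*, at 9.50 and 2.45 TPM, since *Id1* and *Id3* overlapped between genotypes.

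The E proteins, which ID proteins bind, moved in both directions. *Tcf3* was at 7.82, 8.13, 8.79 and 7.55 TPM in *Arid1a* WT and at 10.4, 11.1, 11.4 and 12.6 TPM in *Arid1a* cKO. *Tcf12* was at 5.52, 6.13, 6.66 and 4.68 TPM in *Arid1a* WT and at 9.57, 10.3, 10.1 and 8.89 TPM in *Arid1a* cKO. Neither gene overlapped between genotypes, and in CPM *Tcf3* rose by 0.56 ± 0.07 on the log2 scale (edgeR, adjusted p = 2.29e-06) and *Tcf12* by 0.96 ± 0.07 (edgeR, adjusted p = 1.65e-08). *Tcf4*, the most abundant E protein gene in *Arid1a* WT, was at 16.1, 16.1, 15.3 and 14.6 TPM in *Arid1a* WT and 11.9, 13.1, 11.1 and 11.8 TPM in *Arid1a* cKO, and in CPM fell by 0.86 ± 0.06 on the log2 scale (edgeR, adjusted p = 8.49e-09). The size of the *Tcf4* change depends on transcript length, and with length offsets it was -0.28.

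The summed E protein level was 29.4 ± 1.77 TPM in *Arid1a* WT and 33.1 ± 1.12 TPM in *Arid1a* cKO. In CPM, which is not scaled for length, the sums overlapped, at 64.9 to 73.0 in *Arid1a* WT and 69.0 to 71.5 in *Arid1a* cKO. The ratio of summed ID to summed E protein TPM was 1.54 to 1.72 in *Arid1a* WT and 0.280 to 0.315 in *Arid1a* cKO. By TPM, summed ID RNA was above summed E protein RNA in each *Arid1a* WT library and below it in each *Arid1a* cKO library. That switch rests on *Id4*, the gene on which the family was chosen, and is no separate result. Without *Id4*, summed ID RNA was 12.0 ± 1.60 TPM in *Arid1a* WT and 4.82 ± 0.163 TPM in *Arid1a* cKO. It was then below the E protein sum in every library of both genotypes. The ratios are of RNA over a mixed population, and protein was not measured here.

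**Figure D4:**
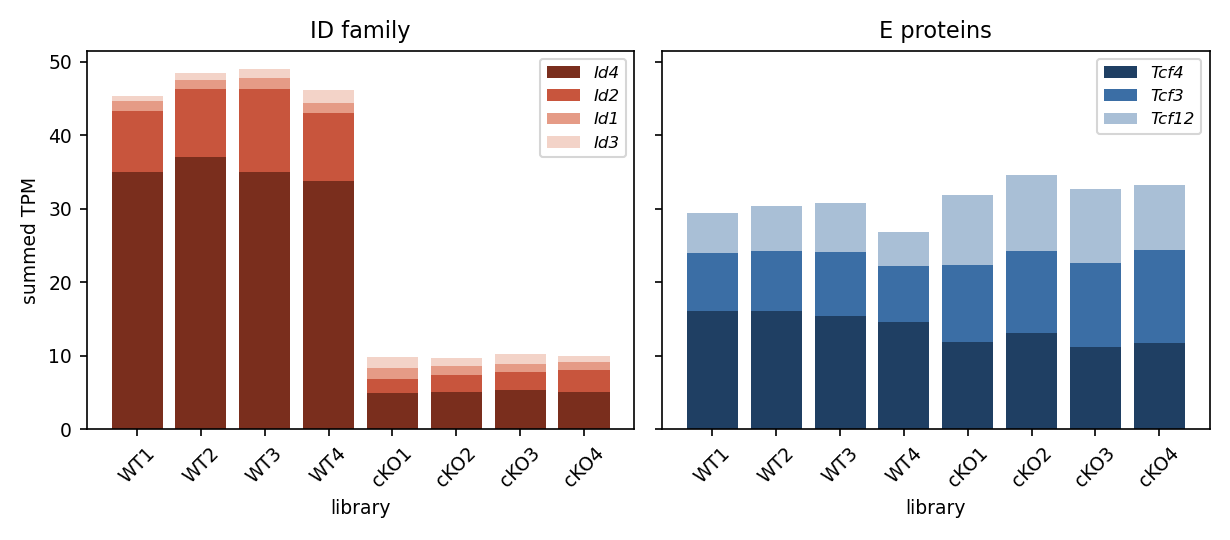
Summed TPM of the ID genes (left) and the E protein genes (right) in each library, stacked by gene on a shared linear axis from 0. The ID stack is 47.3 TPM on average in *Arid1a* WT and 9.91 TPM in *Arid1a* cKO, while the E protein stack is 29.4 and 33.1 TPM with a smaller share of *Tcf4* in *Arid1a* cKO.

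Other bHLH genes showed no common direction. Of 45 tissue-restricted bHLH genes, listed as possible partners of E proteins, 30 were tested. Of these, 9 rose and 8 fell (median 0.41), a share of 56.7% called beside 74.0% of all genes. Most RNA of this list came from *Tcfl5*, *Mesp1* and *Atoh8*. *Tcfl5* fell from 537 ± 35.6 to 381 ± 9.19 CPM and *Mesp1* from 110 ± 9.39 to 60.1 ± 4.36 CPM. *Atoh8* rose from 87.2 ± 6.72 to 193 ± 8.65 CPM. *Mesp2*, best known from somite segmentation, fell by 2.51 ± 0.11 on the log2 scale, from 12.2 ± 1.03 to 2.15 ± 0.241 CPM. The muscle factor gene *Myf6* fell by 1.43 ± 0.33. *Hand2*, known from heart and limb, rose by 1.85 ± 0.24, and *Tal2*, a factor of the developing midbrain, rose by 1.62 ± 0.18, both from less than 2 CPM. Of 12 HES and HEY repressors and their relatives, 1 rose and 3 fell, or 33.3% called. The clock-linked repressor *Bhlhe40* fell by 1.73 ± 0.14, and *Hes1*, a Notch target, fell by 0.36 ± 0.14 with overlap between genotypes, a call that was lost with DESeq2, where the fold was -0.33, and without *Arid1a* WT library 3 or 4 or *Arid1a* cKO library 3 or 4. Both bHLH genes of meiotic entry rose. *Stra8*, which retinoic acid induces at meiotic entry, rose by 0.75 ± 0.07, from 12.9 ± 0.811 to 21.7 ± 0.519 CPM, and *Bhmg1*, which encodes its partner MEIOSIN, rose by 2.21 ± 0.08, from 3.95 ± 0.284 to 18.2 ± 0.583 CPM.

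Among the genes that carry BMP signals to *Id* promoters, all 4 SMADs were called, beside 74.0% of all genes, 1 higher and 3 lower. *Smad1* fell by 1.51 ± 0.07 on the log2 scale, from 46.0 ± 3.14 to 16.1 ± 0.997 CPM (edgeR, adjusted p = 5.07e-11), and *Smad9* by 2.20 ± 0.12, from 10.6 ± 1.13 to 2.30 ± 0.185 CPM (edgeR, adjusted p = 3.04e-10). *Smad5*, the third receptor-regulated SMAD of the pathway, fell by 0.35 ± 0.07 in CPM but was higher in *Arid1a* cKO once transcript length was taken into account, at 7.85 ± 0.938 TPM in *Arid1a* WT and 9.80 ± 0.862 in *Arid1a* cKO. *Smad4*, their common partner, rose by 1.28 ± 0.06, from 12.9 ± 0.605 to 31.3 ± 0.816 CPM.

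Of 16 genes in the BMP ligand list 12 were tested, and 5 rose and 2 fell, or 58.3% called beside 74.0% of all genes. *Bmp5*, *Bmp6* and *Bmp7* of the BMP5 to BMP8 group rose by 2.23 ± 0.20, 1.69 ± 0.16 and 1.13 ± 0.17 on the log2 scale, and *Bmp1*, which despite its name encodes a protease that frees BMPs from an inhibitor, by 1.51 ± 0.20. Without *Bmp1*, 4 of 11 rose. With length offsets the rise of *Bmp5* was 3.62. *Bmp5*, *Bmp6*, *Bmp7* and *Bmp1* each stayed under 4 CPM on average in *Arid1a* cKO. *Bmp8a*, of the same group, rose by 1.63 ± 0.40, and *Bmp8b* was not called (0.34 ± 0.34). The 2 genes that fell were *Gdf9*, by 1.10 ± 0.18, and *Gdf6*, from 0.193 ± 0.103 to 0 CPM. Of 11 receptors and coreceptors, 3 rose and 3 fell, or 54.5% called. The type II receptor *Acvr2a* rose by 0.51 ± 0.07 from 33.0 ± 2.97 to 47.1 ± 1.46 CPM and the coreceptor *Hjv* by 0.88 ± 0.12, while the coreceptor *Rgmb* fell by 1.10 ± 0.17 and the type I receptor *Acvr1* by 0.65 ± 0.22, the last with overlap between genotypes and not called without *Arid1a* WT library 2. Of 17 inhibitors 14 were tested, and 5 rose and 4 fell, or 64.3% called, and their summed level was 365 to 410 CPM in *Arid1a* WT and 299 to 315 CPM in *Arid1a* cKO. *Smurf1*, a ligase for BMP SMADs named after its values were seen, fell by 1.02 ± 0.06. *Smad6*, an inhibitory SMAD that is itself a BMP target in many tissues, rose by 2.61 ± 0.06, from 6.78 ± 0.264 to 41.4 ± 1.34 CPM (edgeR, adjusted p = 7.83e-14). The secreted antagonists *Sostdc1*, *Sost* and *Chrdl1* rose by 2.47 ± 0.28, 1.67 ± 0.23 and 1.03 ± 0.24, each from under 1 CPM.

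ID proteins are short-lived, and genes of their turnover were abundant. Of 8, 3 rose and 4 fell, or 87.5% called beside 74.0% of all genes. *Usp1*, which removes ubiquitin from ID proteins, rose by 0.21 ± 0.06 on the log2 scale, a call lost with limma on log2 TPM, and its activating subunit *Wdr48* fell by 0.39 ± 0.07. *Fzr1* and *Cdc20*, the substrate adaptors of the anaphase-promoting complex, rose by 0.52 ± 0.05 and fell by 0.54 ± 0.05. The ubiquitin ligase *Huwe1* rose by 1.36 ± 0.12 and the ligase *Smurf2* fell by 0.51 ± 0.05. *Cops5*, a COP9 signalosome subunit, did not pass the test, with a fitted difference of 0.02 ± 0.08 whose sign depends on the scaling. *Cdk2*, a kinase that phosphorylates ID2 and ID3 and is needed in meiotic prophase, fell by 2.53 ± 0.05, from 154 ± 4.57 to 26.6 ± 1.31 CPM. Of 5 inhibitors of cyclin-dependent kinases, genes that E proteins activate in other cells, 40.0% were called. *Cdkn1c* rose by 1.10 ± 0.10 and *Cdkn1b* fell by 0.89 ± 0.11. *Cdkn1a* (-0.19 ± 0.13), *Cdkn2a* (-0.22 ± 0.12) and *Cdkn2b* (0.04 ± 0.15) did not pass the test, though both *Cdkn1a* and *Cdkn2a* were called with limma on log2 TPM and *Cdkn2a* also without TMM (-0.32), and the sign for *Cdkn2b* depends on the scaling.

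**Figure D5:**
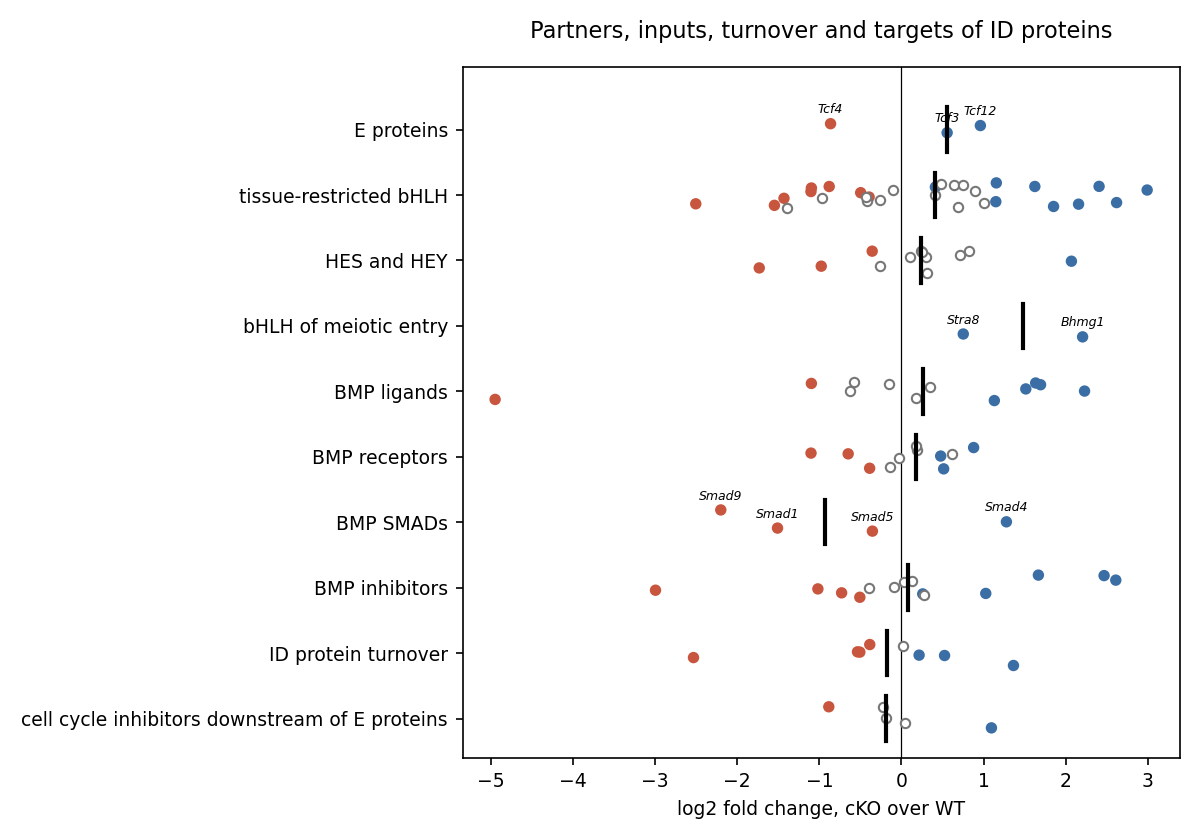
Log2 fold change (*Arid1a* cKO over *Arid1a* WT) of each tested gene, by list. The lists hold bHLH genes, genes of BMP signalling and of ID protein turnover, and genes downstream of E proteins. Filled points are called genes (red lower, blue higher), open points are the rest and a black bar marks each list's median. Calls of both directions occur in every list except that of meiotic entry, in which *Stra8* and *Bhmg1* rose.

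The genes whose log2 CPM was most like that of *Id4* over the 8 libraries were *Mllt10*, *Gopc* and *Tdrd1*, each with a Pearson correlation that rounds to 1.00. Their log2 fold changes were -3.07 ± 0.06, -2.33 ± 0.05 and -2.74 ± 0.05. *Tdrd1* encodes a Tudor protein of the germ granules, *Gopc* a Golgi protein needed for acrosome formation, and *Mllt10* a chromatin protein. The most opposed were *Atp6v1e2*, *Odf1* and *Tex33*, with log2 fold changes of 2.49 ± 0.05, 2.05 ± 0.05 and 2.35 ± 0.05. Those nearest to *Id2* were *Rce1*, *Tmem52* and *Ivd*, also at 1.00 after rounding. Such values mostly describe the split between genotypes that all these libraries share: of 12996 genes compared, 55.5% correlated with *Id4* at 0.95 or more in size, and 48.4% with *Id2*. Likeness to *Id1* and *Id3* is not given because their counts were too low.

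Some properties of the gene models bear on these values. *Id4* has a single GENCODE M21 transcript of 3849 bases with 483 coding bases in 3 exons, and the first 1508 bases of its RefSeq gene lie over *A330033J07Rik*, a gene on the opposite strand (chr13:48044231-48262623). Of the 3819 31-base words of *Id4* transcripts, 119 also occur in transcripts of other genes. Transcripts of *Gm49291* hold 117 of these words and those of *A330033J07Rik* hold 37. Whether strand was used in counting is not given in the sources used here, so reads of those shared words cannot be assigned to 1 gene. Of the 31-base words in *Id4* transcripts 3.12% also occur in transcripts of other genes, against 1.60% for *Id2* and 0% for *Id1* and *Id3*. *Id2* has GENCODE transcripts of 958, 1270 and 1969 bases. The length at which *Id2* was quantified, recovered from counts and TPM and relative to the *Arid1a* WT mean, was 0.993 to 1.01 in *Arid1a* WT and 1.11 to 1.23 in *Arid1a* cKO, with no overlap. The *Id2* difference was 3.88-fold in TPM, which is scaled for that length, and 3.18-fold in CPM, which is not. For *Id4* the same length was 0.997 to 1.00 in *Arid1a* WT and 1.04 in each *Arid1a* cKO library.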

How the data were processed

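RNA-seq of 4 *Arid1a* WT and 4 *Arid1a* cKO libraries was analysed. The authors quantified reads with Salmon (version not given in the sources used here), summed transcripts to Entrez genes with tximport on mm10, and deposited estimated counts, not scaled for depth or length, with 0 columns left out here. The authors also deposited TPM, which is scaled for both. Their DESeq2 table of fold changes and p-values was not used.

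Estimated counts were rounded. Genes with at least 10 counts summed over 8 libraries were tested with edgeR 4.0.16 in R 4.3.3 (TMM, glmQLFit, glmQLFTest, genotype only, all libraries) with calls at 0.05 or less after Benjamini-Hochberg adjustment over all genes. CPM used TMM-scaled library sizes, likeness used log2 CPM with a prior count of 2, and the script was tested on simulated data. Of 21058 Entrez numbers, 21036 matched a RefSeq symbol. Plots used matplotlib 3.10.9 in Python 3.11.15. Transcript lengths relative to *Arid1a* WT were recovered as count over TPM.

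The members and gene lists were chosen with earlier results of these data known. Named were the ID genes, *Arid1a*, all genes of 4 short lists (E proteins, SMADs, turnover, kinase inhibitors), the 4 called genes with the largest change and an average log2 CPM of at least 0 in each other pathway list, the 3 most abundant markers of each cell type, the 3 genes most like each ID gene and the 3 most opposed to *Id4*. Not all of these are reported, and those most like *Id1* and *Id3* were left out. *Rhox5* and *T* were named for their counts. Those named after their values were seen were *Piwil1*, *Pou5f2*, *Pgk2*, *Ccna1*, *Mlh3*, *Mybl1*, *Smurf1*, *Tcfl5*, *Mesp1*, *Atoh8*, *Bmp8a*, *Bmp8b*, *Gdf6* and *Gdf9*. Alternatives were DESeq2 1.42.0, other scalings and filters, limma 3.58.1 on log2(TPM + 1) and log2(TPM + 0.1), length offsets, a replicate block and each library left out. Same-numbered samples share only a number.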

Additional observations from a re-analysis of the deposited data

Results flagged for a closer look

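Values were flagged where 1 library of 4 stood far from the other 3, with a gap to its nearest neighbour, as a share of the range of its group, above Dixon's 95% critical value for 4. Of 202 groups examined 13 were over that limit, and chance alone gives about 10.1. Among the ID genes, *Id1* was low in *Arid1a* WT library 2, at 0.594 CPM against 0.792 to 0.819 in the others (gap 0.879), and the relative transcript length of *Id3* was low in *Arid1a* cKO library 1, at 0.962 against 1.10 in the others (gap 0.978). Among E proteins, *Tcf3* was high in *Arid1a* cKO library 4, at 23.6 CPM against 20.7 to 21.1 (gap 0.863), and *Tcf4* was low in *Arid1a* WT library 4, at 38.5 CPM against 44.2 to 45.2 (gap 0.840). For both E proteins the genotypes stayed apart with that library included.

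In the turnover and kinase inhibitor lists, *Cops5* was high in *Arid1a* cKO library 1 (200.5 CPM, gap 0.831), *Smurf2* was low in *Arid1a* WT library 3 (134.8 CPM, gap 0.849) and *Cdkn1a* was high in *Arid1a* cKO library 2 (5.94 CPM, gap 0.893). *Hand2* was low in *Arid1a* cKO library 4 (1.48 CPM, gap 0.913) and *Stra8* was high in *Arid1a* WT library 4 (14.1 CPM, gap 0.952). Of the genes most like an ID gene, *Tmem52* was high in *Arid1a* cKO library 4 (2.44 CPM, gap 0.895) and *Gopc* was low in *Arid1a* cKO library 1 (16.3 CPM, gap 0.867). The summed spermatid markers were highest in *Arid1a* cKO library 1, at 15182 CPM against 14613 to 14683 (gap 0.877), and the summed macrophage and blood markers were lowest in *Arid1a* cKO library 2, at 19.0 CPM against 22.0 to 22.5 (gap 0.859).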

How the results depend on the processing

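Each ID gene kept its direction in all 17 alternatives. Leaving out each library in turn gave log2 fold changes of -2.67 to -2.63 for *Id4*, -1.76 to -1.61 for *Id2*, -0.21 to -0.03 for *Id1* and 0.07 to 0.52 for *Id3*. *Id4* moved beyond its replicate spread without TMM (-2.75), with length offsets (-2.69) and with limma on log2(TPM + 1) (-2.57) or log2(TPM + 0.1) (-2.77). *Id2* moved with length offsets (-1.86) and log2(TPM + 0.1) (-1.92). Relative to TMM, the median of all genes shifted by -0.10 without TMM, -0.11 with log2(TPM + 1) and -0.13 with log2(TPM + 0.1).

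Reversals occurred for 4 named genes. *Smad5* became higher in *Arid1a* cKO, at 0.29 with log2(TPM + 1), 0.32 with log2(TPM + 0.1) and 0.42 with length offsets, which differ from the main fit in accounting for length. *Cops5* turned to -0.073 without TMM, -0.14 on both TPM scales and -0.051 with offsets, and ranged from -0.043 to 0.11 with libraries left out. *Cdkn2b* turned to -0.058, -0.084 and -0.10 without TMM and on the TPM scales (-0.057 to 0.12 with libraries left out). *Dmrtb1* turned to -0.082 without TMM, -0.12 on both TPM scales and -0.028 with offsets (-0.046 to 0.075). For these 3 the cause was not tested.

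Calls among tissue-restricted bHLH genes were 11 instead of 17 with filterByExpr, which tests fewer genes. HES and HEY calls were 2 with DESeq2 and 2 to 5 with libraries left out, falling to 2 without *Arid1a* WT library 3 or *Arid1a* cKO library 3. Kinase inhibitor calls were 4 instead of 2 on both TPM scales. With a replicate block *Id4* was at -2.65 and *Id2* at -1.67, and *Hes1* (-0.35) lost its call. The numbers do not pair the samples (correlations of same-numbered deviations 0.20, 0.04, 0.09 and -0.09, and 1 of 4 pairs best with its own number), and under the block 6429 genes were called higher and 6671 lower. About 10 to 27 counts per library limit what *Id1* and *Id3* can show. Of 1343 fits of 79 named genes, 1285 kept direction and call.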
